A study of Mus musculus with 6 samples.

Results

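Of 9 genes of transforming growth factor beta (TGF-beta) signalling, 8 were read from a table of 13734 genes measured in cultured mouse white adipocytes. They were chosen by name: the ligand genes Tgfb1, Tgfb2 and Tgfb3, the activin subunit gene Inhba, the receptor gene Tgfbr2, the signal transducer gene Smad3 and the feedback genes Smad7 and Skil; Bmp4, the other name on the list, is not analysed here. The cells came from 1 immortalized line of subcutaneous preadipocytes that is homozygous for floxed Dicer1 and carries Cre-ERT2, a Cre recombinase switched on by tamoxifen, in controls and knockouts alike. All cultures were differentiated with insulin, rosiglitazone, T3, IBMX, dexamethasone and indomethacin. On day 6 the knockout cultures (DICERKO, 3 libraries) were given 10 µM of 4-hydroxytamoxifen over 48 h, which deletes Dicer1, and the cultures that the labels call WT control (3 libraries) received ethanol. Isoproterenol, an agonist of beta-adrenergic receptors, was added afterwards to all 6 cultures, at 10 µM over 6 h. Deletion and exposure to 4-hydroxytamoxifen cannot be told apart, no library is from cells without isoproterenol, and the labels do not say whether the replicates were differentiated separately, so the p-values reflect only how much these libraries vary.

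TGF-beta ligands are made as latent dimers that are tethered to the matrix, and once released they bind the type II receptor encoded by Tgfbr2, which recruits and activates a type I receptor. The activated receptor phosphorylates SMAD2 and SMAD3, which enter the nucleus with SMAD4 and switch on targets that include brakes on the same signal: SMAD7 blocks the receptor, and SKIL (also called SnoN) represses SMAD-driven transcription. Activin A, a dimer of the Inhba product, feeds into the same SMADs through its own receptors. In adipose tissue TGF-beta is known for blocking the differentiation of preadipocytes and for raising matrix synthesis. DICER, the RNase encoded by Dicer1, cuts microRNA precursors into mature microRNAs, and several members of this pathway are well-known microRNA targets.

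The analysed genes held 13569034 to 30268077 reads per library. Dicer1 was lower in every DICERKO library (5.43 to 5.49 log2 CPM, the log2 of the read count scaled to library size) than in every control (6.09 to 6.14). Its transcript level in DICERKO was still 0.633 of the control level, and mature microRNAs were not measured. DICERKO replicate 3 stood apart: its reads differed from those of DICERKO replicates 1 and 2 by a chi-square of 85.5 and 92.8 per degree of freedom, against 8.36 to 26.4 for the other pairs of 1 group. Summed over 14 mature adipocyte markers, the level was 7802 to 9813 CPM in controls, 12606 and 12464 CPM in DICERKO replicates 1 and 2, and 3827 CPM in replicate 3. Of the 14, 11 lay above the control mean in DICERKO replicates 1 and 2, and Car3, Lpl and Cd36 lay below it. In replicate 3, 0 lay above it. Preadipocyte and stromal markers (11 of 12 listed had a row) summed to 8437 to 9652 CPM in controls and to 5352, 5894 and 4794 CPM in DICERKO replicates 1, 2 and 3. The lower stromal sum came mainly from matrix genes. Col3a1, a collagen III chain gene, fell by 1.44 (adjusted p = 0.00856), and Col1a1, Dcn and Fbn1 were also lower in every DICERKO library than in every control. So were the surface marker genes Thy1 (difference -0.46, adjusted p = 0.112) and Dpp4, which was below the filter for testing. The other 5 tested stromal markers (Pdgfra, Pdgfrb, Dlk1, Cd34 and Ly6a) had overlapping groups and differences of -0.06 to 0.29. Macrophage markers summed to 33.6 to 38.6 CPM in controls and 38.5 to 39.7 in DICERKO, with Cd68 higher in every DICERKO library (difference 0.39, adjusted p = 0.163) and Lyz2 and Mrc1 below the filter for testing. The remaining macrophage markers tested, Csf1r (-0.16, adjusted p = 0.704) and Cd14 (-0.17, adjusted p = 0.614), had negative differences and overlapping groups. Ptprc, Adgre1 and Itgam had no row. Endothelial markers summed to 4.94 to 6.09 and 6.31 to 8.16 CPM, with Tek higher in every DICERKO library (difference 0.67, adjusted p = 0.118) and Pecam1 and Cdh5 below the filter. Kdr, the other endothelial marker tested, went the other way with overlapping groups (difference -1.39, adjusted p = 0.319). Without DICERKO replicate 3 the Kdr difference was -2.07 (adjusted p = 0.013). That value rests on 2 and 11 reads in DICERKO replicates 1 and 2 and 15 to 34 in controls. Kdr reached the filter of 1 CPM only in controls 1 and 3 and in DICERKO replicate 3, the library left out. Emcn and Cldn5 had no row. Smooth muscle and myofibroblast markers summed to 443 to 587 CPM in controls and 364 to 459 in DICERKO, with 4 of 5 tested differences negative (median -0.33). Proliferation markers, mostly Mki67 and Top2a by level, summed to 703 to 826 CPM in controls and 827 to 968 in DICERKO. All 4 tested proliferation differences were positive (median 0.22, beside 0.02 over all genes tested). Because replicate 3 stood apart, results that rest on it are also given without it. In bulk RNA fewer cells of a type and less RNA per cell cannot be told apart.

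The 3' UTRs of the genes were searched for bases that pair with microRNA seeds (bases 2 to 8 of the mature RNA), since mature microRNAs are the product of the deleted enzyme. Of 24 microRNA families listed, 21 had a mature sequence in the RefSeq table (GRCm38.p6), and their 21 seeds all differ. The microRNAs shown, with the seed in capitals, are some of those with a match in Tgfbr2, Smad7, Inhba, Skil or Tgfb2. Other families, such as miR-15/16 and miR-140, also match some of these genes.
mmu-miR-20a-5p: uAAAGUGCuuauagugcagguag
mmu-miR-19b-3p: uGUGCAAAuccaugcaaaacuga
mmu-miR-130a-3p: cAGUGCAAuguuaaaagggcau
mmu-miR-21a-5p: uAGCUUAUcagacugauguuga
mmu-miR-29a-3p: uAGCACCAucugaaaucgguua
mmu-let-7a-5p: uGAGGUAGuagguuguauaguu

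The longest annotated 3' UTR of Tgfbr2 (6085 bases, GENCODE M21) held 16 matches from 13 of the 21 families. In 422 tested genes with a 3' UTR within 25% of that length the median was 9 families (quartiles 7 and 11). This 3' UTR runs past the end of the RefSeq gene, and 8 matches from 8 families lie inside that gene. The median of 9 is for the full length and is not a background for the shorter part inside. Shorter 3' UTRs hold fewer families, with a median of 5 near 2656 bases. Skil held 13 matches from 8 families (median 7 in genes of like length), Smad3 9 from 7 (median 6), Inhba 7 from 7 (median 7), Tgfb3 5 from 4 (median 2), Smad7 4 from 4 (median 3) and Tgfb2 3 from 2 (median 5). The short 3' UTR of Tgfb1 (135 bases) held 0. Matches to miR-19, miR-130 and miR-17/20 overlap in a single stretch of Tgfbr2 and again in Skil, and Tgfb2 carries a pair of miR-29 matches, the sites shown here in DNA letters, 5′ to 3′ along the transcript, with the matching bases in capitals.
Tgfbr2, miR-17/20, chr9:116090073-116090102 (minus strand): tttacaacagccaataacgtttGCACTTTa
Skil, miR-17/20, chr3:31119638-31119667 (plus strand): gatttggggaagggcagcctttGCACTTTt
Tgfbr2, miR-21, chr9:116090135-116090164 (minus strand): atgccttggagactgtcatggcATAAGCTg
Inhba, miR-130, chr13:16028206-16028235 (plus strand): tgttttttttatcgtttactatTTGCACTa
Tgfb2, miR-29, chr1:186623803-186623832 (minus strand): ctttttctttaattggttttttTGGTGCTc
Tgfb2, miR-29, chr1:186622815-186622844 (minus strand): acacgatgcatgtccggttttgTGGTGCTc
Skil, let-7, chr3:31122330-31122359 (plus strand): acatgacacacaaaactgtcctCTACCTCa

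Such matches are frequent in long 3' UTRs. A match to miR-17/20 was present in 44.8% of tested genes with a 3' UTR as long as that of Tgfbr2 and in 33.6% of those as long as that of Skil. A miR-21 match was present in 31.04% of genes as long as Tgfbr2 and in 7.56% of genes as long as Smad7, which holds 1 that is not shown. The Tgfbr2 shares are for its full GENCODE length, while its sites shown lie in the shorter part inside the RefSeq gene. Near 2656 bases the shares were 25.1% for miR-17/20 and 12.8% for miR-21. A miR-29 match was present in 24.2% of genes as long as Tgfb2, a let-7 match in 20.9% of genes as long as Skil and a miR-130 match in 27.0% of genes as long as Inhba. A match describes these letters and does not show that the site is used.

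None of the 8 members passed the test with all 6 libraries (limma, Benjamini-Hochberg over 10054 genes tested, adjusted p under 0.05), in a comparison in which 0.438% of genes did (0.149% higher and 0.288% lower in DICERKO). The largest differences were in Tgfbr2 (0.46 on the log2 scale) and Inhba (-0.41). Without DICERKO replicate 3, Tgfbr2 rose and Smad7 fell, 2 of 8 members against 19.7% of all genes called in that fit, so the share is near the background. At an unadjusted limma p under 0.05 with all libraries 1 of 8 members stood (Tgfbr2), against 15.8% of all genes. The DICERKO and control libraries did not overlap for 1 of 8 members (Tgfb3), against 20.2% of all genes. The median difference over the 8 members was -0.05, beside 0.02 over all genes tested.

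**Figure D1:**
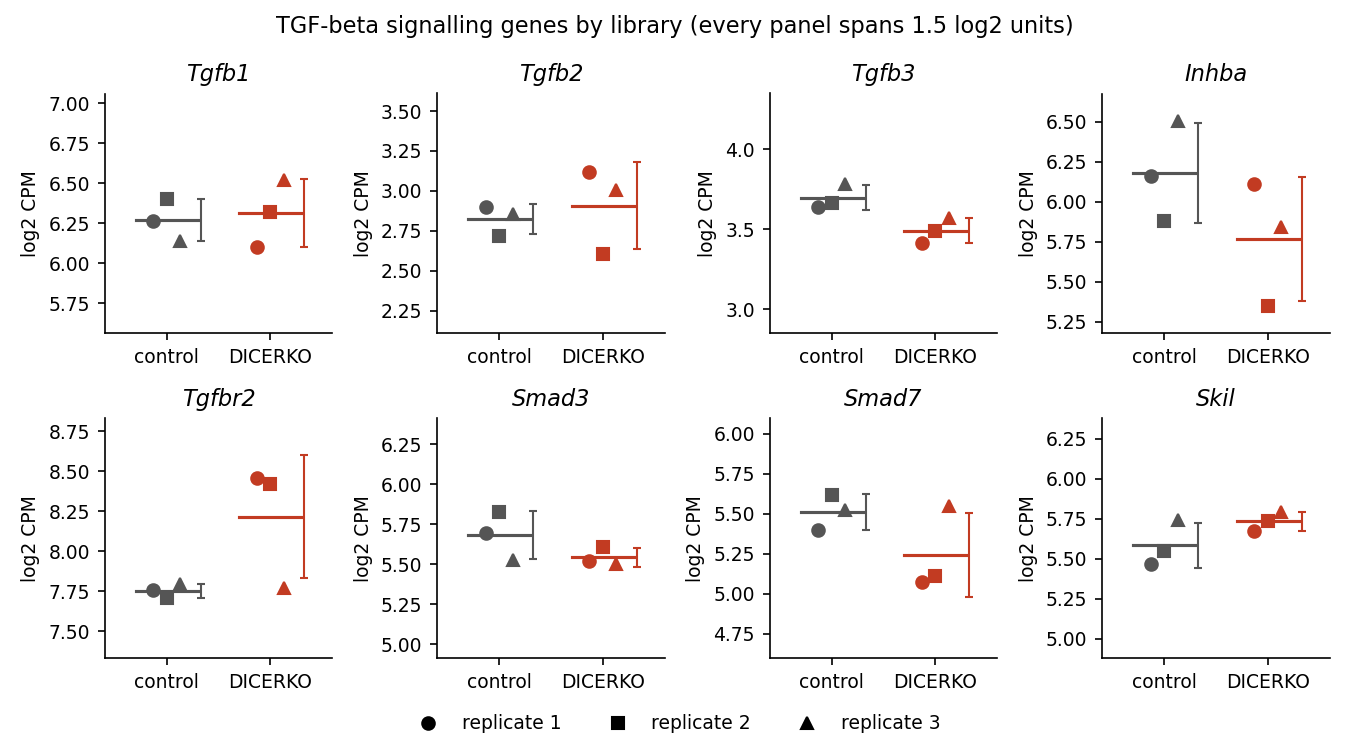
Level of each of the 8 genes in every library (log2 CPM, 3 control libraries in grey and 3 DICERKO libraries in red; symbols mark the replicate, lines the group mean and bars the SD). Tgfbr2 is near 8.4 in DICERKO replicates 1 and 2 and at the control level of about 7.8 in replicate 3, and Smad7 shows the opposite split.

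Among the ligands, Tgfb1 (Entrez 21803; GRCm38 chromosome 7, 25687002 to 25705077) was the most abundant per length. Tgfb1, which encodes the isoform best known from fibrosis and immune regulation, stood at 6.26, 6.40 and 6.14 log2 CPM in controls 1 to 3 and at 6.10, 6.32 and 6.52 in DICERKO replicates 1 to 3. The groups overlapped. Its difference was 0.04 (SE 0.13, adjusted p = 0.874), with a 95% interval of -0.24 to 0.33. Per kilobase of annotated exon the 3 controls read 14.0 to 16.8 CPM for Tgfb1, 3.69 to 4.08 for Tgfb3 and 1.14 to 1.29 for Tgfb2. On that scale Tgfb1 made up 72.4 to 77.4% of the summed TGF-beta ligand transcripts in controls and 74.5 to 78.8% in DICERKO libraries.

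Tgfb2 (Entrez 21808; chromosome 1, 186622787 to 186709697) was the member with the fewest reads, down to 147 in a library. It read 2.90, 2.72 and 2.85 log2 CPM in controls and 3.12, 2.60 and 3.01 in DICERKO replicates 1 to 3, so DICERKO libraries lay on both sides of the controls. The difference was 0.08 (SE 0.17, adjusted p = 0.817), and the 95% interval runs from 0.815 to 1.38 of the control level. Tgfb3 (Entrez 21809; chromosome 12, 86056743 to 86079041) read 3.64, 3.66 and 3.79 in controls and 3.41, 3.49 and 3.57 in DICERKO. Every DICERKO value lay below every control value, yet the difference of -0.21 (SE 0.13, adjusted p = 0.422; 0.195 without DICERKO replicate 3) did not pass. Exons of Tgfb2 and Tgfb3 overlap transcripts on the opposite strand over 124 bases (Gm29491) and over 163 (Gm37804) and 257 (Gm48008) bases, and counting is not stated to use strand, so some of their reads may belong to those transcripts.

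Inhba (Entrez 16323; chromosome 13, 16004256 to 16031609), whose product dimerizes to activin A, varied most among the controls. It read 6.16, 5.88 and 6.50 log2 CPM in controls and 6.11, 5.35 and 5.84 in DICERKO replicates 1 to 3. DICERKO replicate 1 lay within the control range and replicates 2 and 3 below it. The difference was -0.41 (SE 0.20, adjusted p = 0.339; -0.45, adjusted p = 0.101 without DICERKO replicate 3), and the 95% interval with all libraries runs from 0.553 to 1.02 of the control level.

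Tgfbr2 (Entrez 21813; chromosome 9, 116087695 to 116175363), the ligand-binding type II receptor gene, was the most highly expressed member per length, at 25.5 to 27.1 CPM per kilobase in controls. It read 7.76, 7.71 and 7.80 log2 CPM in controls and 8.46, 8.42 and 7.77 in DICERKO replicates 1, 2 and 3. DICERKO replicates 1 and 2 lay above every control and replicate 3 within the control range. With all libraries the difference was 0.46 (SE 0.17, adjusted p = 0.244), or 1.38 times the control level (95% interval 1.07 to 1.78). Without DICERKO replicate 3 it rose by 0.68 (SE 0.09, adjusted p = 0.000125), a p-value that leaves out the library that differs.

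The mature adipocyte markers, like Tgfbr2, were higher in DICERKO replicates 1 and 2 than in replicate 3. Against the control mean, Tgfbr2 lay at 0.70, 0.67 and 0.02 log2 units in DICERKO replicates 1, 2 and 3, and the median of the 14 adipocyte markers at 0.59, 0.59 and -1.18. Their part in the Tgfbr2 values was not tested. The genes whose log2 CPM over the 6 libraries were most like Tgfbr2 were Nbr1, an autophagy receptor gene (Pearson r = 0.999), and Rbpms2, an RNA-binding protein gene (r = 0.998). The profile is a common one here, since 747 of 8259 genes had an r above 0.9 with Tgfbr2, and these points share their libraries.

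**Figure D2:**
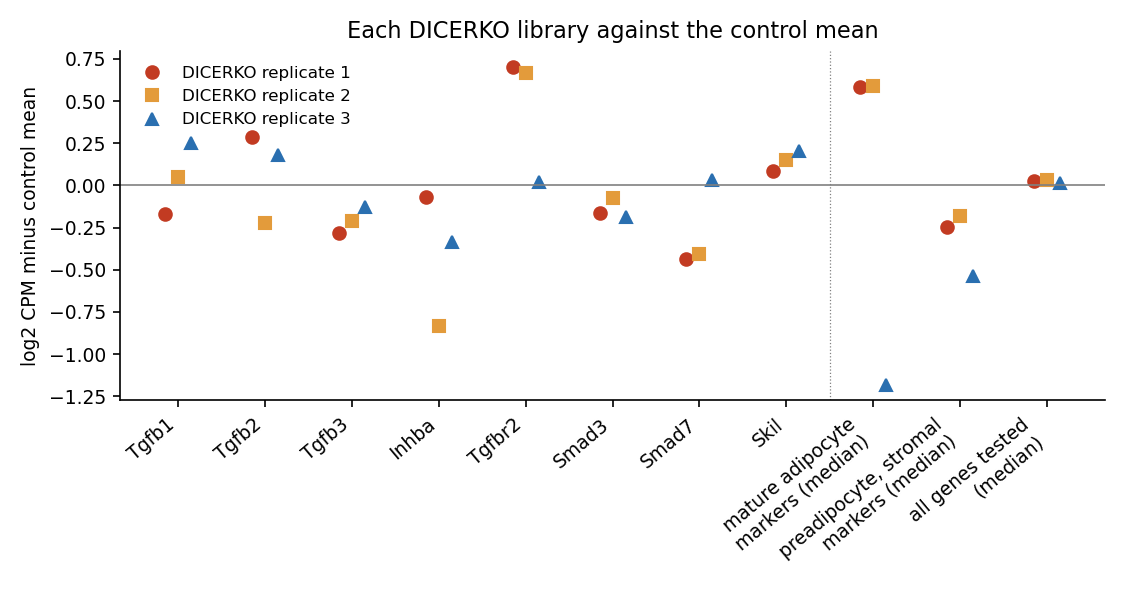
Each DICERKO library minus the control mean (log2 CPM) for the 8 genes and, right of the dotted line, the median of 14 mature adipocyte markers, 10 tested preadipocyte and stromal markers and all genes tested. Tgfbr2 and the adipocyte median are high in DICERKO replicates 1 and 2 (0.70 and 0.67 for Tgfbr2), while in replicate 3 Tgfbr2 is at 0.02 and the adipocyte median at -1.18.

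Smad3 (Entrez 17127; chromosome 9, 63646766 to 63757994) carries the signal to the nucleus. It read 5.70, 5.83 and 5.53 log2 CPM in controls and 5.52, 5.61 and 5.50 in DICERKO, with overlapping groups and a difference of -0.14 (SE 0.11, adjusted p = 0.518; 95% interval 0.765 to 1.08 of the control level). The Smad3 difference changed little without DICERKO replicate 3 (-0.12, adjusted p = 0.458).

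Of the feedback genes, Smad7 (Entrez 17131; chromosome 18, 75367365 to 75395935), the inhibitory SMAD gene, read 5.39, 5.62 and 5.52 log2 CPM in controls and 5.07, 5.11 and 5.55 in DICERKO replicates 1, 2 and 3. DICERKO replicates 1 and 2 lay below every control and replicate 3 within the control range. The difference was -0.27 with all libraries (SE 0.14, adjusted p = 0.368), and without DICERKO replicate 3 Smad7 fell by 0.42 (SE 0.11, adjusted p = 0.0127). The genes most like Smad7 over the 6 libraries were Maff (r = 0.997) and Jdp2 (r = 0.990), both encoding basic leucine zipper transcription factors, and 375 of 8259 genes had an r above 0.9.

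Skil (Entrez 20482; chromosome 3, 31095058 to 31122923), the SMAD corepressor gene, read 5.46, 5.55 and 5.74 log2 CPM in controls and 5.67, 5.74 and 5.79 in DICERKO. The groups overlapped through control 3. The difference of 0.15 (SE 0.11, adjusted p = 0.493) had a 95% interval of 0.937 to 1.31 of the control level and was 0.12 without DICERKO replicate 3. Skil and Smad7 are both known direct SMAD targets. Their differences had opposite signs under every alternative run, but the alternatives refit the same libraries and are not independent. Neither gene passed with all libraries. In DICERKO replicate 3 both lay above the control mean (Skil by 0.21 and Smad7 by 0.03). For Inhba the most alike profiles were those of Bend3 (r = 0.982) and Cd44, the hyaluronan receptor gene (r = 0.972), with 20 of 8259 genes above 0.9.

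**Figure D3:**
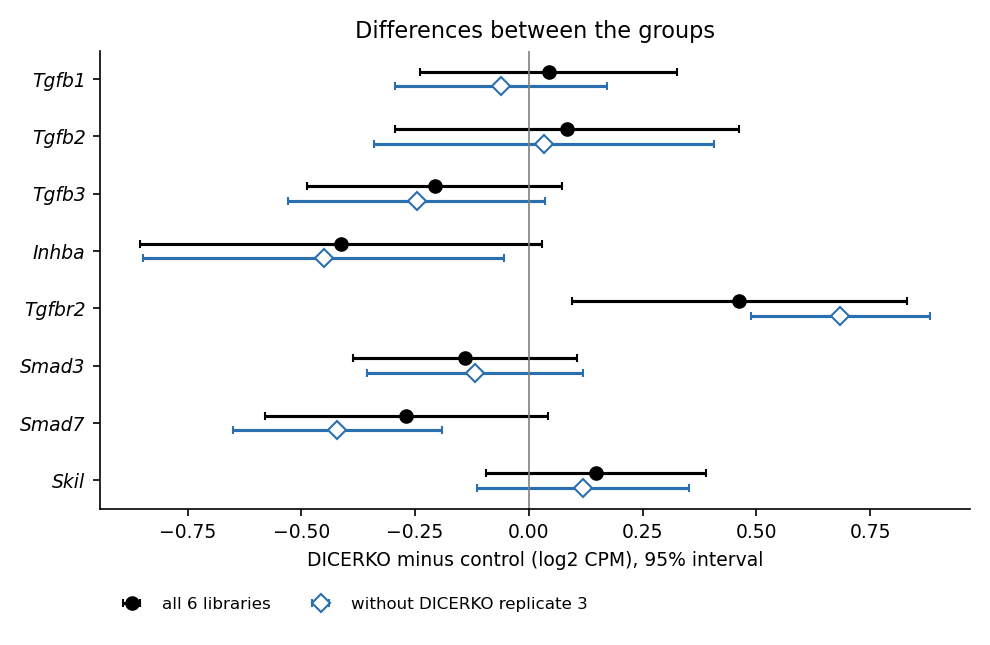
Difference between the groups (DICERKO minus control, log2 CPM) for the 8 genes, with 95% intervals from limma, for all 6 libraries (filled circles) and without DICERKO replicate 3 (open diamonds). The Tgfbr2 interval with all libraries runs from 0.10 to 0.83, and those of Smad7 and Inhba reach just past 0.

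Per kilobase the control means ordered the members as Tgfbr2, Tgfb1, Inhba, Smad7, Smad3, Skil, Tgfb3 and Tgfb2. Tgfbr2 stood at 26.4 ± 0.82 CPM per kilobase (SD, n = 3), Tgfb1 at 15.3 ± 1.39, Inhba at 11.5 ± 2.51, Smad7 at 10.1 ± 0.79, Smad3 at 9.31 ± 0.96, Skil at 4.97 ± 0.49, Tgfb3 at 3.84 ± 0.21 and Tgfb2 at 1.23 ± 0.08. The control ranges of Tgfb1 and Inhba, of Inhba and Smad7, and of Smad7 and Smad3 overlap, so these neighbours are not ordered beyond their spread. The order also depends on the length used, that of all annotated exons. For Tgfbr2 this length includes 3' UTR past the end of the RefSeq gene.

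Promoters of 5 of the 8 members (Tgfb1, Tgfb2, Tgfbr2, Smad3 and Inhba) were in the RefSeq table, as a window of 300 bases around the start. On either strand 0 of these held the palindromic SMAD element GTCTAGAC, which 0.213% of all promoters hold, or the whole cyclic AMP element TGACGTCA, which 1.79% hold. The shorter SMAD element CAGAC occurred 2 times in Tgfb2 and 1 time in Tgfbr2, and 49.6% of all promoters hold it. The shorter cyclic AMP element TGACG, which is also part of the whole cyclic AMP element, occurred 1 time in Tgfb2, and 20.8% of promoters hold it.

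The wider pathway was read from 9 lists of 129 genes, of which 100 had a row and 90 were tested. With all libraries 0 of 90 rose or fell, against 0.438% of all genes, and limma-voom on recovered reads called 0. At an unadjusted limma p under 0.05, 25 were lower, against 7.35% of all genes, and 5 were higher, against 854 of 10054 genes. In either direction the share of all genes was 15.8%. Negative differences numbered 65 of 90, with a median of -0.18 beside 0.02 over all genes tested. Without DICERKO replicate 3, 7 rose and 21 fell, against 12.5% and 7.22% of all genes. The lists overlap with the stromal and myofibroblast marker lists in Col1a1, Fbn1, Dcn, Acta2 and Tagln, so the lower stromal sum and the pathway lists rest in part on the same genes. The 5 stromal markers with overlapping groups, named above, are in none of the pathway lists. The part of other cell types in these differences was not tested.

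The proteins that bind and neutralize ligands outside the cell had the lowest median of the 9 lists, -0.45 over 10 tested secreted antagonists. With all libraries 0 of the 10 rose or fell, against 0.438% of all genes. Fst encodes follistatin, which binds activin and is the classical partner of the Inhba product. Fst read 7.55, 7.21 and 7.74 log2 CPM in controls and 6.99, 6.66 and 6.65 in DICERKO, without overlap, a difference of -0.73 (SE 0.15, adjusted p = 0.0718). It fell without DICERKO replicate 3 (by 0.68, adjusted p = 0.00304), without DICERKO replicate 1 (by 0.85, adjusted p = 0.0382) and with median centring (by 0.77, adjusted p = 0.0445), while over all 13 alternatives its adjusted p ran from 0.00304 to 0.257. Dcn, which encodes the TGF-beta-binding proteoglycan decorin, read 9.93, 9.93 and 10.37 in controls and 8.97, 9.58 and 9.24 in DICERKO, a difference of -0.81 (SE 0.17, adjusted p = 0.0814); it fell by 0.80 without DICERKO replicate 3 (adjusted p = 0.00273).

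The groups did not overlap for 6 secreted antagonists that were lower and 2 that were higher in DICERKO, of 10 tested, against 9.81% and 10.4% of all genes. Chosen after their values were seen, these include Fst, Fstl3, Chrd, Bmper and Dcn among the lower genes and Grem1 and Twsg1 among the higher. Grem1, which encodes a BMP antagonist, differed by 0.34 (adjusted p = 0.177). Fstl3, which encodes a relative of follistatin, differed by -0.56 (adjusted p = 0.196) and fell by 0.71 without DICERKO replicate 3 (adjusted p = 0.00314). In the fit without DICERKO replicate 3, 6 of the 10 fell and 2 rose, against 7.22% and 12.5% of all genes, and the rises were in Grem1 and Chrdl1.

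**Figure D4:**
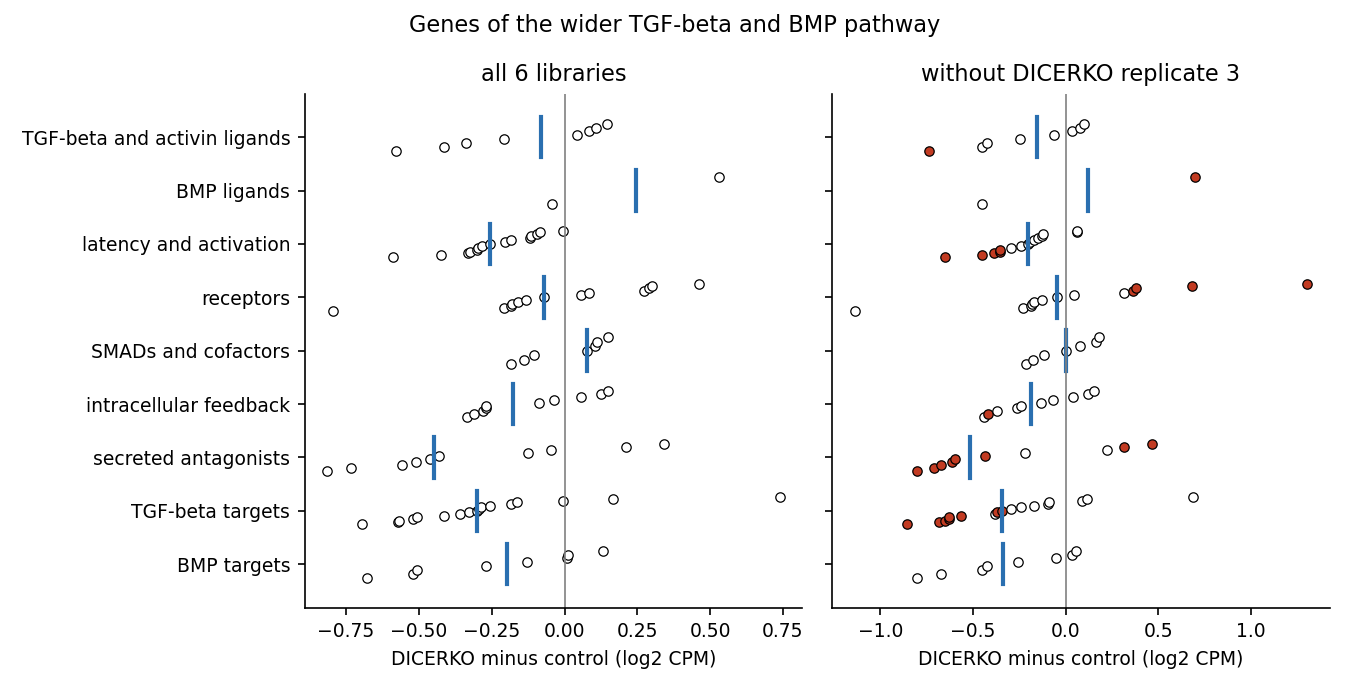
Difference between the groups (DICERKO minus control, log2 CPM) for each tested gene of the 9 pathway lists, with all libraries (left) and without DICERKO replicate 3 (right); red points passed the limma threshold and blue bars mark list medians. No point is red on the left, and the medians of secreted antagonists (-0.45) and TGF-beta targets (-0.30) lie lowest there.

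Of 17 tested genes that TGF-beta is known to induce, 0 passed with all libraries, against 0.438% of all genes. Negative differences numbered 15 of 17, beside 4750 of 10054 over all genes tested, with a median of -0.30; Col1a1, Acta2 and Tagln of this list are also stromal or myofibroblast markers. Col1a1, the collagen I chain gene, read 12.00, 12.26 and 11.82 log2 CPM in controls and 11.34, 11.41 and 11.25 in DICERKO, a difference of -0.70 (SE 0.15, adjusted p = 0.0814). Snai1, which encodes a transcription factor of mesenchymal transition, read 5.92, 5.99 and 5.56 in controls and 5.21, 5.18 and 5.38 in DICERKO, a difference of -0.57 (SE 0.13, adjusted p = 0.0974). In both genes every DICERKO library lay below every control. Without DICERKO replicate 3, 8 targets fell and 0 rose, against 7.22% and 12.5% of all genes, and Col1a1 (by 0.65, adjusted p = 0.00273) and Snai1 (by 0.63, adjusted p = 0.00239) were among them. The NADPH oxidase gene Nox4, chosen after its values were seen, was the target furthest in the other direction, at 0.74 (adjusted p = 0.248). It read -0.20 to 0.05 log2 CPM in controls and 0.38 to 0.84 in DICERKO. These levels lie near the filter of 1 CPM, which every DICERKO library reached and not every control did. Nox4 was thus tested through the group where it is high.

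Genes that hold TGF-beta latent or release it had negative differences in 15 of 15 tested genes, beside 4750 of 10054 over all genes tested. Their median was -0.26, with 0 calls against 0.438% of all genes. Without DICERKO replicate 3, 2 of the 15 differences were positive. Fbn1, which encodes the microfibril protein fibrillin-1 that anchors latent complexes, read 9.25, 9.38 and 9.21 log2 CPM in controls and 8.97, 8.88 and 8.72 in DICERKO, a difference of -0.42 (SE 0.11, adjusted p = 0.131). Ltbp4, a latent TGF-beta binding protein gene, differed by -0.59 (SE 0.18, adjusted p = 0.187). Of the 15, 5 fell and 0 rose without DICERKO replicate 3, against 7.22% and 12.5% of all genes, and Fbn1 (by 0.36, adjusted p = 0.0202) and Ltbp4 (by 0.65, adjusted p = 0.02) were among them.

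Receptors divided by sign, with 6 positive and 7 negative differences among 13 tested and a median of -0.07. Beside Tgfbr2 the smallest p was that of Acvr2a, an activin type II receptor gene, which read 4.63, 4.62 and 4.86 log2 CPM in controls and 5.14, 5.03 and 4.84 in DICERKO (difference 0.30, adjusted p = 0.291). Without DICERKO replicate 3, 4 receptor genes rose and 0 fell, against 12.5% and 7.22% of all genes: Tgfbr2, Acvr2a (by 0.38, adjusted p = 0.0334), and, named after their values were seen, Bmpr1a, a BMP type I receptor gene, and Acvr1c. Acvr1c, the type I receptor gene ALK7 of adipocytes, read 2.27 to 2.79 in controls and 3.80, 4.03 and 0.25 in DICERKO replicates 1, 2 and 3, and like the adipocyte markers it was lowest in replicate 3.

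SMADs and their cofactors had differences from Crebbp at -0.18 (adjusted p = 0.402) to Tgfbrap1 at 0.15 (adjusted p = 0.459). Of 7 tested, 0 were called with all libraries, against 0.438% of all genes. Without DICERKO replicate 3 the count was also 0, against 19.7% of all genes. Crebbp encodes a coactivator and Tgfbrap1 a receptor-associated adaptor. The 10 tested intracellular feedback genes, Smad7 and Skil included, had a median of -0.18 and 0 calls with all libraries, against 0.438% of all genes. Pmepa1, which encodes a SMAD-sequestering membrane protein, differed by -0.31 (adjusted p = 0.291), and Bambi, which encodes a decoy receptor, by -0.33 (adjusted p = 0.343). Smad7 was the 1 feedback gene of 10 that fell without DICERKO replicate 3, near the 7.22% of all genes.

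Other ligands and the BMP branch gave 0 calls with all libraries, against 0.438% of all genes. Gdf15, a stress-induced ligand gene of the family, differed by -0.58 (adjusted p = 0.133) and fell by 0.74 without DICERKO replicate 3 (adjusted p = 0.000487). Of the BMP ligand genes 2 were tested. Gdf10 differed by 0.53 (adjusted p = 0.324), and it rose by 0.70 without DICERKO replicate 3 (adjusted p = 0.0463). Bmp6 differed by -0.04 (adjusted p = 0.968; -0.45 without DICERKO replicate 3, adjusted p = 0.437). The BMP targets had a median of -0.20 over 8 tested, with the smallest p in Hes1 (-0.52, adjusted p = 0.177) and Hey1 (-0.68, adjusted p = 0.317), both better known as Notch targets. The BMP target Id1, named after its values were seen, read 4.67 to 4.92 log2 CPM in controls and 4.68 to 4.91 in DICERKO (difference 0.01, adjusted p = 0.965).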

How the data were processed

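The authors deposited log2 CPM values of poly(A) RNA libraries (NEBNext Ultra II kit, per the labels' protocols), 1 column per library. Per the submitters' processing notes the tools were HISAT2, featureCounts, edgeR, Trimmomatic and FastQC, with the builds mm10 and GRCm38, and the design text names TMM scaling. Every deposited log2 value equals a whole number of reads plus 0.5 over an implied library size of 17594568 to 42331787 (100% whole within 0.01 reads), and the members held 147 to 9255 reads per library. Of the Entrez IDs 13682 matched a RefSeq symbol (GRCm38.p6) and 52 did not. The 10054 genes that reached 1 CPM in 3 or more libraries were fitted in R 4.3.3 by limma 3.58.1, trended on intensity, on the deposited values, group as the only term, and adjusted by Benjamini-Hochberg over all genes. Differences are in log2 CPM and are understated for genes of low level; intervals are 95% and unadjusted. Levels per kilobase used the union of GENCODE M21 exons.

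The members and lists were chosen with earlier results of these data known. Besides the members, the genes named are those past the threshold in each pathway list or, where there were 0, the 2 with the smallest p, and for the 3 members with the smallest p the 2 most alike profiles among genes with a mean of at least 5 CPM. Chi-squares used genes with at least 20 reads in both libraries. The fit was tested on simulated data. Alternatives changed the filter, pseudocount, scaling, test, replicate term and libraries. Other steps ran in Python 3.11.15 (pandas 2.3.3, scipy 1.17.1, numpy 2.4.6), with figures by matplotlib 3.10.9. A gene of the wider lists is counted but not reported by name here.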

Additional observations from a re-analysis of the deposited data

How the results depend on the processing

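The count of members called was 0 under every alternative except the fit without DICERKO replicate 3, and leaving out single libraries gave 0 to 2. For the wider pathway the count was 1 with median centring (Fst), 0 to 28 when single libraries were left out (1 without DICERKO replicate 1, 28 without DICERKO replicate 3), and 0 otherwise. Over all genes the count was 44 (15 higher, 29 lower), 31 to 56 under other filters, log2(CPM + 1), scalings and limma-voom, and 1 to 1983 when single libraries were left out: 11, 10 and 1 without controls 1, 2 and 3, and 36, 19 and 1983 without DICERKO replicates 1, 2 and 3. With the replicate number as a block 2 genes were called. Same-numbered libraries correlated at 0.20, -0.01 and -0.08 in their deviations from the group means, and differently numbered ones at -0.23 to 0.17. These 3 correlations are too few to settle whether the numbers pair the samples. The block called 0 members, as did the fit without it. Signs turned for Tgfb1 without control 3 (-0.02) or DICERKO replicate 3 (range over single libraries left out -0.061 to 0.15), for Tgfb2 without DICERKO replicate 1 (range -0.02 to 0.24), and for Bmp6 (range -0.52 to 0.23) with limma-voom (0.08) and without control 1 (0.23), control 2 (0.16), DICERKO replicate 1 (0.22) or DICERKO replicate 2 (0.11); no member changed sign under either other scaling. Of 322 values of named genes under the alternatives 295 kept their direction and side of the threshold; 13 passed only there, 11 of these without DICERKO replicate 3 and 2 for Fst, and 6 are those of Dicer1, which missed it. With 3 libraries a group the intervals of the members are wide, and Tgfb2, with the fewest reads, is also limited by depth.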
